A study of Mus musculus with 6 samples.

Results

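The genes that drive and restrain the cell division cycle were followed in mouse embryonic stem cell (mESC) lines that had lost all *Tet* genes and in control lines. A list of 48 symbols was used: 10 cyclins, 5 cyclin-dependent kinases (CDKs), the Cks subunits, 5 CDK inhibitors with the phosphatase gene *Cdkn3*, the CDC25 phosphatases and the kinases that oppose them, the RB family with its E2F and DP partners, *Skp2*, the MuvB core, *Mybl2* and *Foxm1*. The members were taken by name, but the list was chosen with earlier results of these data known. Of the 48, 47 were found among 22380 gene identifiers once these were paired with symbols, and 43 could be tested, with 10 or more normalized counts on average. *Cdkn2d* was not among the paired identifiers and was not analysed here.

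RNA-Seq was performed on 6 lines of C57BL/6 background, each from a different embryo. The 3 *Ctrl* lines carried CreERT2 wt/ki and the Gt(ROSA)26Sor<tm1Ytchn>/J wt/ki reporter, and the 3 *Tet iTKO* (inducible triple knockout) lines carried both of these alleles and were also *Tet1* fl/fl, *Tet2* fl/fl and *Tet3* fl/fl. CreERT2 is a Cre recombinase that enters the nucleus when it binds 4-hydroxytamoxifen (4-OHT), the active form of tamoxifen, and the reporter gives H2B-EGFP once Cre has cut. All 6 lines were given 4-OHT (1 µM) for 2.5 days and grown for 4 more days without it, to day 6.5, in 2i medium (CHIR99021 and PD0325901) on fibroblast feeders. Live cells positive for CD326 and EGFP and negative for Thy1.2 were sorted, so each library stands for a mixed cycling population of 1 line.

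As background, cyclins are the regulatory subunits that switch CDKs on. D cyclins with CDK4 or CDK6 act in G1, cyclin E with CDK2 at entry into S phase, cyclin A through S and G2, and B cyclins with CDK1 in mitosis. CDK inhibitors block these pairs, WEE1 and PKMYT1 hold CDK1 off by phosphorylation, and CDC25 phosphatases remove that mark. RB proteins bind E2F factors and keep their targets silent until CDKs phosphorylate RB. mESC are known for a short G1 phase, high cyclin E and low levels of CDK inhibitors.

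The values are normalized counts: reads per gene divided by the library's size factor and rounded to whole numbers by the authors. They summed to between 4210784 and 4219665 in the *Ctrl* libraries and to between 3964824 and 3996522 in the *Tet iTKO* libraries, and an estimated 3.67 M to 5.10 M reads lay on genes. The 47 members together took 0.742% to 0.760% of each library. Lines were compared with limma on log2(normalized count + 1), and a gene is called higher or lower in *Tet iTKO* at an adjusted p (Benjamini-Hochberg over 10524 genes) under 0.05. Fold changes on this scale understate the change of genes with few counts. The targeted genes were counted whole, so reads in the deleted exons cannot be set apart. *Tet1* had 696, 682 and 716 across *Ctrl* against 787, 895 and 753 across *Tet iTKO* mESC, *Tet2* 249, 170 and 230 across *Ctrl* against 233, 268 and 211 across *Tet iTKO* mESC and *Tet3* 28, 13 and 13 across *Ctrl* against 10, 3 and 3 across *Tet iTKO* mESC, so the counts of *Tet1* and *Tet2* do not check the deletion. The 12 mESC markers summed to 33423 to 33674 in *Ctrl* and 28842 to 29701 in *Tet iTKO* mESC, and none was at 0 in every line. *Dppa5a* alone was 11578, 11088 and 11011 across *Ctrl* against 8136, 8809 and 8774 across *Tet iTKO* mESC. *Dppa5a*, *Pou5f1*, *Nanog*, *Zfp42* and *Fbxo15* were called lower (41.7%, against 18.4% of all genes tested). *Esrrb*, *Klf4* and *Epcam* were called higher (25.0%, against 16.4%), and the others were not called. After correction for GC content and length, 3 were higher, *Dppa5a* among them (log2 fold change 0.11, limma adjusted p = 0.0197), and 3 were lower. Over all genes tested, 12.7% were then higher and 13.5% lower. The 16 feeder fibroblast markers summed to 1725 to 1857 and 2607 to 2675, of which *Fn1* alone was 1371, 1370 and 1475 across *Ctrl* against 2030, 2083 and 2020 across *Tet iTKO* mESC. Of the 8 feeder markers tested, 4 were called higher (50.0%, against 16.4% of all genes tested). These calls remained after the correction for GC content and length described with the calls: *Fn1* and the collagen genes *Col1a1* (181, 170 and 150 across *Ctrl* against 304, 281 and 349 across *Tet iTKO* mESC), *Col1a2* (43, 28 and 43 across *Ctrl* against 75, 87 and 95 across *Tet iTKO* mESC) and *Col3a1* (32, 25 and 21 across *Ctrl* against 61, 64 and 78 across *Tet iTKO* mESC). The collagens had log2 fold changes of 0.89, 1.17 and 1.36. *Postn* stayed at 3 or below and *Thy1*, the sorted-out surface marker, was 30, 46 and 41 across *Ctrl* against 47, 35 and 23 across *Tet iTKO* mESC. *Thy1*, *Acta2* (46, 45 and 56 across *Ctrl* against 50, 44 and 42 across *Tet iTKO* mESC), *Col5a1* and *Loxl1* overlapped between the groups and were not called. *Lum*, *Dcn*, *S100a4*, *Pdgfrb*, *Prrx1*, *Twist1* and *Twist2* overlapped as well and, like *Postn*, were too low to be tested. The 13 markers found for other lineages summed to 66 to 104 and 144 to 192. The 4 Y-linked genes found in a list of sex genes had counts in every library. *Eif2s3y* had 363, 344 and 375 across *Ctrl* against 182, 181 and 178 across *Tet iTKO* mESC. It was called lower (log2 fold change -0.995, limma adjusted p = 5.56e-09). *Ddx3y*, *Kdm5d* and *Uty* overlapped between the groups and were not called. Over the 6 genes tested on chromosome Y the median log2 fold change was -0.91, and its cause was not tested. The part of these shifts in the results below was not tested, and in such bulk samples fewer cells of a type and less RNA per cell cannot be told apart.

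In *Tet iTKO* mESC, the mitotic regulators *Cdk1*, *Ccnb1* and *Ccnb2*, the Cks subunit genes, *Cdk4* and *E2f5* fell. Among the genes that rose were *Ccnd2*, *E2f3*, *E2f7*, *Cdc25b*, *E2f1*, *E2f4*, *E2f8* and *Cdc25a*. Once GC content and transcript length were corrected for, *Cks2* was at -0.14 (limma adjusted p = 0.225) and *Cks1b* at 0.063 (limma adjusted p = 0.514) on the log2 scale, so both Cks calls were lost. The same correction removed the calls of *E2f1*, *E2f5* and *E2f8*. When limma was run without the trend of variance on expression, those of *Cdk4*, *Cdc25a*, *E2f4* and *E2f8* were lost. Of the 43 members tested, 14 were called higher, which is 32.6% against 16.4% of all genes tested. Another 9 were called lower, which is 20.9% against 18.4% of all genes tested, so the share that fell was near the background. The remaining 20 were not called. Rises and falls balanced in the middle of the list, with a median log2 fold change of -0.0036 over the 43 members and 0.012 over all genes tested. Among all calls, 47.2% were higher in *Tet iTKO* mESC, and when the libraries were rescaled to equal totals this share was 61.9%, with 15 members higher and 8 lower. At equal totals 2319 of all 10524 genes were higher and 1428 were lower.

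**Figure D1:**
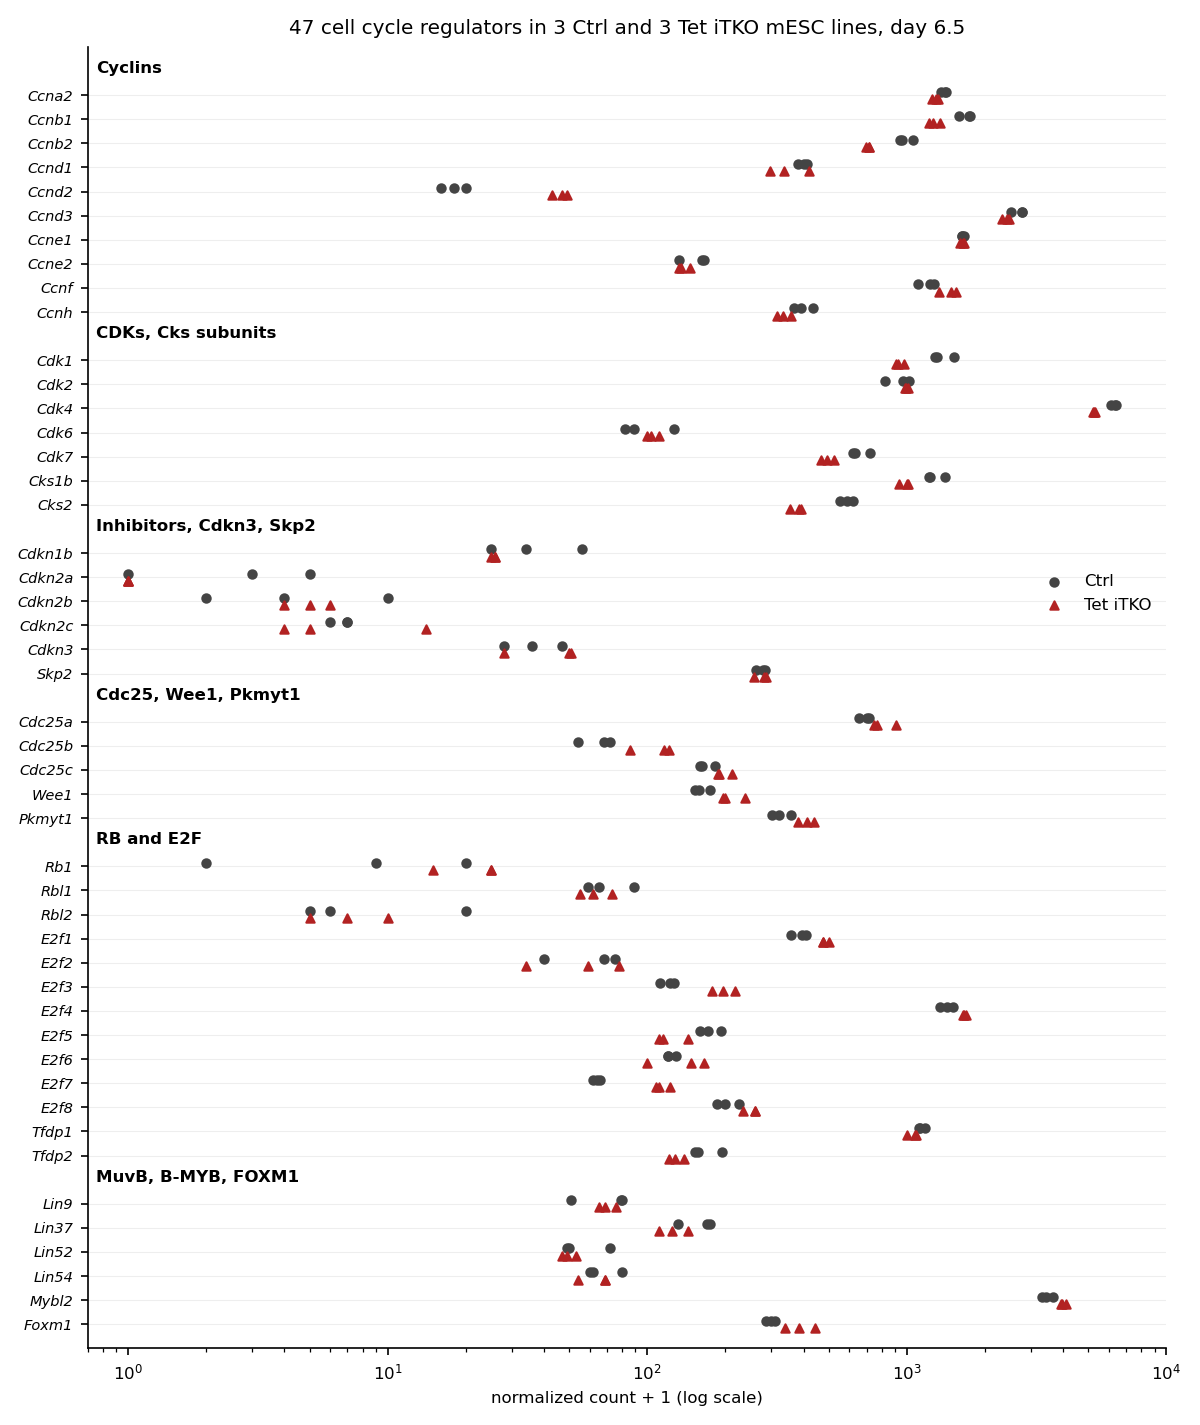
Normalized counts plus 1 on a log scale for the 47 members found, grouped by role, with 1 circle per *Ctrl* line and 1 triangle per *Tet iTKO* line. *Cdk4* and *Mybl2* lie at the top of the range and *Cdkn2a* and *Cdkn2b* at the bottom, and the groups stand clear of each other for genes such as *Ccnd2*, *E2f7* and *Cks2*.

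The groups did not overlap for 27 of the 43 members tested. Every *Tet iTKO* line lay above every *Ctrl* line for 14 of 43 members, against 21.2% of all genes tested. Every *Tet iTKO* line lay below for 13 of 43, against 22.9% of all genes tested. Fold changes across all genes tested moved with transcript length (Spearman rho 0.293 over 10457 genes) and with GC content (rho 0.258), as a description over genes that are not independent. Each library's deviations were therefore also fitted on GC content and length and the fit was subtracted, which is called the corrected value here. After this correction 9 of 43 members were higher, against 12.7% of all genes tested, and 6 of 43 were lower, against 13.5%. Of the 14 higher calls 8 remained and *Cdc25c* was added, and of the 9 lower calls 5 remained and *Tfdp2* was added. *Ccnb1*, *Ccnb2*, *Cdk1*, *E2f3*, *E2f7* and *Ccnd2* were called in every alternative that could be fitted. When limma was run without the trend of variance on expression, 11 of the 23 calls were lost, with adjusted p between 0.0556 and 0.231, and these were *Ccnd3*, *Ccnf*, *Cdc25a*, *Cdk4*, *E2f4*, *E2f8*, *Foxm1*, *Mybl2*, *Pkmyt1*, *Rb1* and *Wee1*. In that fit 5 of 43 members and 1075 of all 10524 genes were higher, so the share of members was near that of all genes. Lower calls were 7 members and 1217 of all genes.

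**Figure D2:**
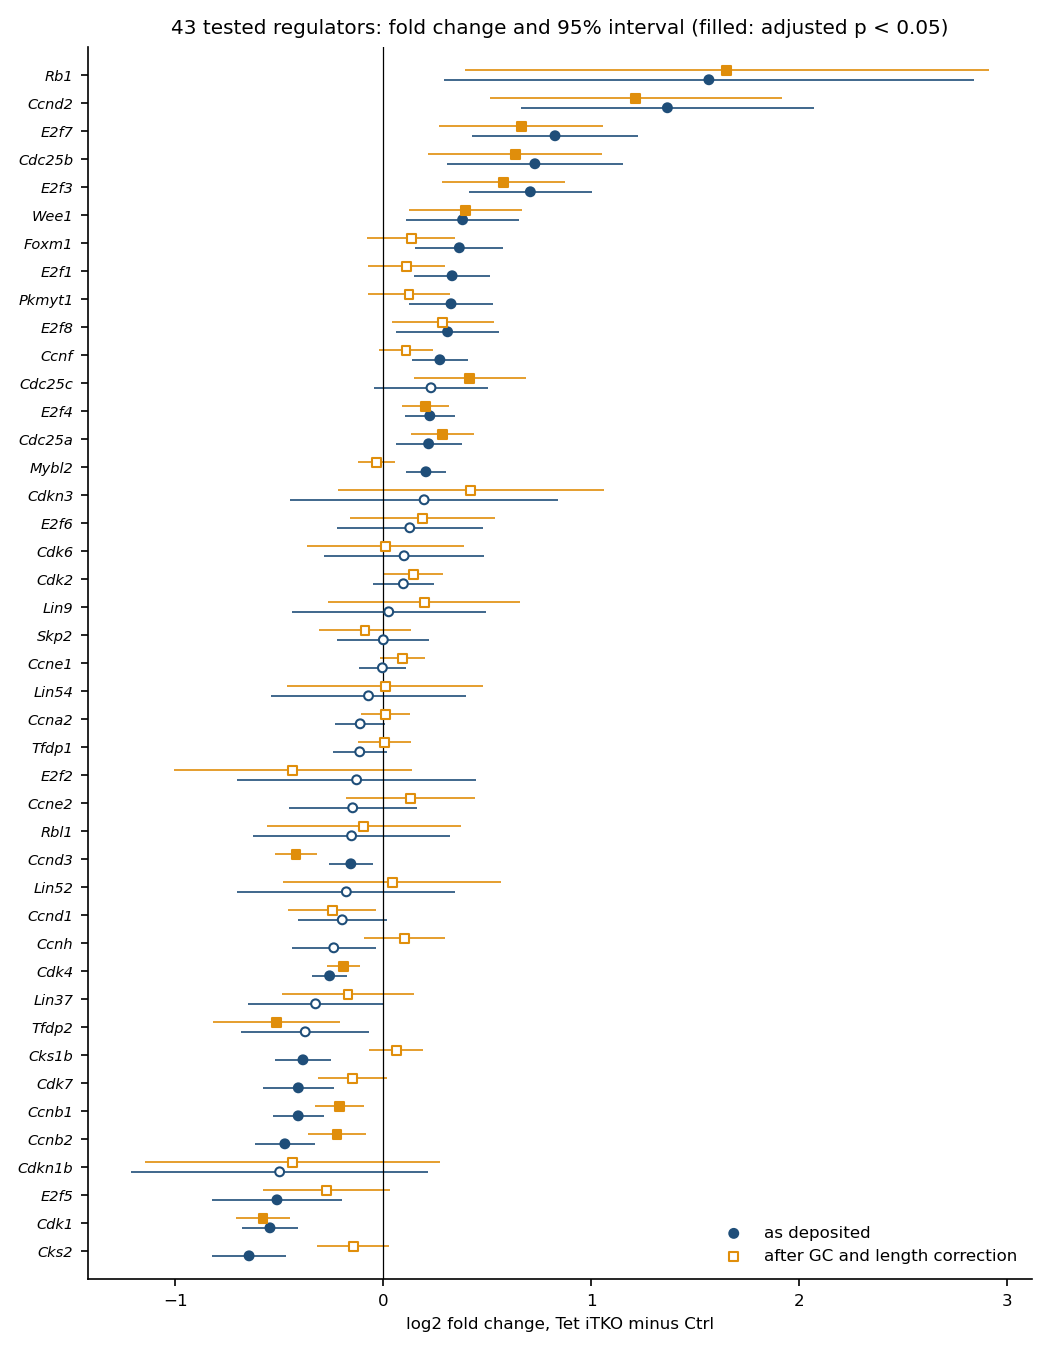
Log2 fold change of *Tet iTKO* against *Ctrl* with its 95% interval for the 43 tested members, from the deposited values (circles) and once GC content and length were corrected for (squares), filled where the adjusted p was under 0.05. *Ccnd2*, *E2f7* and *E2f3* stay to the right of 0 and *Cdk1*, *Ccnb1* and *Ccnb2* to the left in both fits, whereas *Cks1b* and *Mybl2* move to the other side of 0 after correction.

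The D cyclins did not move together. *Ccnd2* (ENSMUSG00000000184.9) encodes cyclin D2, one of the partners of CDK4 and CDK6. It was read at 17, 15 and 19 normalized counts across the *Ctrl* lines against 42, 48 and 46 across the *Tet iTKO* lines. All *Tet iTKO* lines were above all *Ctrl* lines, the mean was 267% of that in *Ctrl*, and the change was the largest of a member whose groups did not overlap (log2 fold change 1.37, standard error 0.35, limma adjusted p = 0.00204). The corrected log2 fold change was 1.22 (limma adjusted p = 0.00768). *Ccnd3* (ENSMUSG00000034165.8), which encodes cyclin D3, had 2509, 2775 and 2769 across *Ctrl* against 2424, 2322 and 2479 across *Tet iTKO* mESC (log2 fold change -0.16, standard error 0.052, limma adjusted p = 0.019). Its fall was small and its corrected log2 fold change was -0.42 (limma adjusted p = 2.24e-08), which is a larger fall. The call was lost without *Ctrl* line 2 (limma adjusted p = 0.103), *Ctrl* line 3 (limma adjusted p = 0.0847) or *Tet iTKO* line 2 (limma adjusted p = 0.102), after rescaling to equal totals (limma adjusted p = 0.304), under quantile normalization (limma adjusted p = 0.604) and with no filter on low values (limma adjusted p = 0.0632). *Ccnd1*, which encodes cyclin D1, had 413, 400 and 380 across *Ctrl* against 420, 296 and 335 across *Tet iTKO* mESC, and the groups overlapped because *Tet iTKO* line 1 was the highest of all 6 lines (limma adjusted p = 0.152). Without that line, the log2 fold change of *Ccnd1* was -0.33 and it was called lower (limma adjusted p = 0.0191).

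Per kilobase of transcript, cyclin D3 was the main D cyclin of both genotypes. *Ccnd3* held 86.4% ± 1.10 (SD, n = 3) of the summed D cyclin level over *Ctrl* lines against 86.1% ± 1.79 (SD, n = 3) over *Tet iTKO* lines. *Ccnd1* held 13.2% ± 1.09 (SD, n = 3) and 12.9% ± 1.89 (SD, n = 3), a difference smaller than the line-to-line spread (exact two-sided permutation test, p = 0.7, with 0.1 the smallest p that 3 lines against 3 can give). The share of *Ccnd2* was 0.334% ± 0.0423 (SD, n = 3) over *Ctrl* lines against 0.991% ± 0.107 (SD, n = 3) over *Tet iTKO* lines, so cyclin D2 stayed a minor transcript.

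Their kinase partner *Cdk4* fell. *Cdk4* (ENSMUSG00000006728.6) was the most abundant member per length, and had 6385, 6108 and 6365 normalized counts across the *Ctrl* lines against 5288, 5231 and 5253 across the *Tet iTKO* lines. The lowest *Ctrl* line was above the highest *Tet iTKO* line, and the mean was 83.6% of that in *Ctrl* (log2 fold change -0.26, standard error 0.041, limma adjusted p = 4.73e-06, corrected -0.19 (limma adjusted p = 0.000335)). Under quantile normalization the call of *Cdk4* was lost (limma adjusted p = 0.148). *Cdk6*, which encodes the related kinase, had 88, 126 and 81 across *Ctrl* against 110, 99 and 102 across *Tet iTKO* mESC, with overlapping groups and a 95% interval of the log2 fold change from -0.28 to 0.49. *Cdk4* held 99.7% of the summed per-kilobase level of both kinases in both genotypes.

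The cyclin that opens S phase was not called. *Ccne1* (ENSMUSG00000002068.10), which encodes cyclin E1, had 1665, 1625 and 1627 normalized counts across the *Ctrl* lines against 1655, 1605 and 1645 across the *Tet iTKO* lines. The 95% interval of its log2 fold change ran from -0.12 to 0.11 (limma adjusted p = 0.972). It held 94.2% ± 0.729 (SD, n = 3) of the summed level of both E cyclins over *Ctrl* lines against 94.7% ± 0.348 (SD, n = 3) over *Tet iTKO* lines. *Ccne2* had 152 ± 18.2 (SD, n = 3) normalized counts over *Ctrl* lines against 137 ± 7.37 (SD, n = 3) over *Tet iTKO* lines, and its groups overlapped. *Cdk2*, which encodes the kinase that cyclins E and A activate, had 936 ± 99.8 (SD, n = 3) normalized counts over *Ctrl* lines against 997 ± 12.7 (SD, n = 3) over *Tet iTKO* lines, with a 95% interval from -0.048 to 0.24. It was called higher after rescaling to equal totals (limma adjusted p = 0.0444) and under quantile normalization (limma adjusted p = 0.0494), and was not called in the other alternatives. *Ccna2*, which encodes the S and G2 cyclin A2, was lower in every *Tet iTKO* line than in every *Ctrl* line, with 1419, 1396 and 1351 across *Ctrl* against 1250, 1297 and 1312 across *Tet iTKO* mESC, but did not pass the test (log2 fold change -0.11, limma adjusted p = 0.153).

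The genes of the mitotic kinase fell together. *Cdk1* (ENSMUSG00000019942.6), the kinase that drives entry into mitosis, had 1513, 1307 and 1286 normalized counts across the *Ctrl* lines against 977, 925 and 906 across the *Tet iTKO* lines. No line of one group reached the other group, the mean was 68.4% of that in *Ctrl* (log2 fold change -0.54, standard error 0.068, limma adjusted p = 4.4e-08), and the corrected value was as large at -0.58 (limma adjusted p = 7.74e-09). *Ccnb2* (ENSMUSG00000032218.6), which encodes one of its B cyclin partners, had 1055, 937 and 958 across *Ctrl* against 716, 693 and 713 across *Tet iTKO* mESC. Its mean was 71.9% of that in *Ctrl* (log2 fold change -0.47, standard error 0.071, limma adjusted p = 1.8e-06), and the corrected value was -0.22 (limma adjusted p = 0.0151). *Ccnb1* (ENSMUSG00000041431.10), the other B cyclin gene listed, had 1746, 1737 and 1591 across *Ctrl* against 1342, 1221 and 1258 across *Tet iTKO* mESC. Its mean was 75.3% of that in *Ctrl* (log2 fold change -0.41, standard error 0.061, limma adjusted p = 1.38e-06), and the corrected value was -0.21 (limma adjusted p = 0.00568). Of the 50-base stretches of the *Ccnb1* transcript 42.1% also occur in transcripts of other genes, so unique alignment could have dropped or moved some of its reads, whereas *Cdk1* and *Ccnb2* shared 0.0%. The B cyclins kept their proportion, with *Ccnb1* at 51.4% ± 1.61 (SD, n = 3) of the summed per-kilobase level of both over *Ctrl* lines against 52.5% ± 0.880 (SD, n = 3) over *Tet iTKO* lines.

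The promoters of *Ccnb1*, *Ccnb2* and *Cdk1* are shown because these genes fell in every alternative and such promoters are known to carry CCAAT boxes and a cell cycle genes homology region (CHR), to which MuvB binds. Each window runs from 250 bases before to 50 after a RefSeq start in GRCm38.p6, 5′ to 3′ on the gene's strand. The window of *Ccnb1* is chr13:100786437-100786736 on the minus strand, that of *Ccnb2* is chr9:70421505-70421804 on the minus strand and that of *Cdk1* is chr10:69352863-69353162 on the minus strand. Capitals mark CCAAT, the CHR words TTTGAA and TTCGAA, and the E2F words TTTCCCGC, TTTGGCGC, TTTCGCGC and TTTGCCGC, each searched on both strands.
*Ccnb1*: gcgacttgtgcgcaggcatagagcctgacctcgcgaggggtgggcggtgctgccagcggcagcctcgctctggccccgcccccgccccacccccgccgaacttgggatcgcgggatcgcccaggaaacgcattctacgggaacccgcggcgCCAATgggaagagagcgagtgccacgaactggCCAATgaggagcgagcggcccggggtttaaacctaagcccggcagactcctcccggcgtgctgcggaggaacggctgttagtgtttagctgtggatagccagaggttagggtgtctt
*Ccnb2*: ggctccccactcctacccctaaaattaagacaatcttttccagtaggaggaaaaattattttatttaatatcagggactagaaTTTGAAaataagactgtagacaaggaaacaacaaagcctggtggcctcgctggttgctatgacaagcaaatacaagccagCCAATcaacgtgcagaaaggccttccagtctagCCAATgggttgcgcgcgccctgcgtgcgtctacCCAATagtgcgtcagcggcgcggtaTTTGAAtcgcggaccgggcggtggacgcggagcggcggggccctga
*Cdk1*: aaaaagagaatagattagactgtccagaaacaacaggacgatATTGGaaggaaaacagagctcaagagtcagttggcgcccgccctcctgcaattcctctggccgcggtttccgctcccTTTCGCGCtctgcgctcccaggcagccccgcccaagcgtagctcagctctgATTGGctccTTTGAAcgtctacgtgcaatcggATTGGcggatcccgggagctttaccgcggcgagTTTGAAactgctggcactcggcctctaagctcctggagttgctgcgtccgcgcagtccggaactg
The *Ccnb1* window holds CCAAT at -99 and -67 and neither of the CHR words searched. Other spellings of CHR and E2F sites were not searched, so a missing word does not show that such a site is absent. The *Ccnb2* window holds 3 CCAAT words, whose first bases lie at -87, -54 and -21 from the start, and TTTGAA at -167 and 5. The *Cdk1* window holds 1 E2F word at -131, TTTGAA at -71 and -15, and the reverse of CCAAT at -208, -80 and -48. Such matches describe the letters and do not show that a factor was bound.

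The small Cks subunits, which bind CDKs and help them to reach their substrates, were among the genes with the clearest falls in the deposited values. *Cks2* (ENSMUSG00000062248.5) had 622, 553 and 588 normalized counts across the *Ctrl* lines against 353, 389 and 384 across the *Tet iTKO* lines. The groups lay far apart (log2 fold change -0.65, standard error 0.088, limma adjusted p = 3.03e-07), but the corrected value was -0.14 (limma adjusted p = 0.225). *Cks1b* (ENSMUSG00000028044.4), whose product also serves SKP2 in the destruction of p27, had 1403, 1211 and 1228 across *Ctrl* against 930, 1007 and 998 across *Tet iTKO* mESC. It fell in the deposited values (log2 fold change -0.39, standard error 0.067, limma adjusted p = 2.05e-05) and the corrected value was on the other side of 0, at 0.063 (limma adjusted p = 0.514). These are the shortest transcripts among the tested members, at 692 bases for *Cks2* and 849 for *Cks1b*, and 29.7% and 7.8% of their 50-base stretches also occur in transcripts of other genes. *Skp2*, the F-box protein that marks p27 for destruction, was not called, with 261, 278 and 282 across *Ctrl* against 286, 280 and 256 across *Tet iTKO* mESC (95% interval of the log2 fold change from -0.22 to 0.22).

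The CDK-activating kinase is built of CDK7, cyclin H and MAT1. *Cdk7* (ENSMUSG00000069089.6) had 723, 617 and 633 normalized counts across the *Ctrl* lines against 468, 523 and 493 across the *Tet iTKO* lines, and all *Tet iTKO* lines were below all *Ctrl* lines (log2 fold change -0.41, standard error 0.084, limma adjusted p = 0.000192). The corrected value was -0.15 (limma adjusted p = 0.198), so the call was lost. *Ccnh*, which encodes cyclin H, was lower in each *Tet iTKO* line than in each *Ctrl* line, with 433, 390 and 365 across *Ctrl* against 358, 315 and 333 across *Tet iTKO* mESC, and missed the threshold (log2 fold change -0.24, limma adjusted p = 0.0593). *Ccnh* was called lower without *Ctrl* line 3 (limma adjusted p = 0.0364) or *Tet iTKO* line 1 (limma adjusted p = 0.0472), with a block for the replicate number (limma adjusted p = 0.0492) and after rescaling by trimmed means (limma adjusted p = 0.0391), and its corrected value was 0.10 (limma adjusted p = 0.471). *Mnat1*, which encodes MAT1, had 314, 344 and 337 across *Ctrl* against 307, 318 and 337 across *Tet iTKO* mESC, with overlapping groups (log2 fold change -0.048, limma adjusted p = 0.747), and its corrected value was 0.15 (limma adjusted p = 0.311). *Ccnf* (ENSMUSG00000072082.5) encodes cyclin F, which binds no CDK and acts in a ubiquitin ligase. It had 1103, 1267 and 1231 normalized counts across the *Ctrl* lines against 1549, 1326 and 1478 across the *Tet iTKO* lines. *Ccnf* rose (log2 fold change 0.27, standard error 0.066, limma adjusted p = 0.0013), and the corrected value of 0.11 (limma adjusted p = 0.21) did not pass.

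Of the CDK inhibitors in the 48-symbol list, the 4 found had few or no counts in both genotypes. *Cdkn1b* (ENSMUSG00000003031.8), which encodes p27, was the only one of these that could be tested, with 55, 24 and 33 normalized counts across the *Ctrl* lines against 24, 25 and 25 across the *Tet iTKO* lines. *Ctrl* line 1 was highest, the groups overlapped, and the 95% interval of the log2 fold change ran from -1.21 to 0.22 (limma adjusted p = 0.291). *Cdkn2a*, which encodes p16 and p19ARF, was at 2, 0 and 4 across *Ctrl* against 0, 0 and 0 across *Tet iTKO* mESC. Against a floor of 3 normalized counts per library, 1 *Ctrl* line was above it and no fold is given. *Cdkn2b*, which encodes p15, was at 1, 3 and 9 across *Ctrl* against 5, 4 and 3 across *Tet iTKO* mESC, and *Cdkn2c*, which encodes p18, at 6, 6 and 5 across *Ctrl* against 4, 3 and 13 across *Tet iTKO* mESC. These 3 genes overlapped between the groups, and a difference was not detectable at this depth. *Cdkn3*, which encodes a phosphatase that acts on CDKs, had 27, 46 and 35 across *Ctrl* against 49, 27 and 50 across *Tet iTKO* mESC and overlapped as well (95% interval from -0.45 to 0.84). The log2 ratio of the summed per-kilobase level of the 4 inhibitors found to that of *Cdk4* and *Cdk6* was -7.66 ± 0.51 (SD, n = 3) over *Ctrl* lines against -7.88 ± 0.22 (SD, n = 3) over *Tet iTKO* lines, with overlap between the groups (exact two-sided permutation test, p = 0.6). *Cdkn1a* (p21) and *Cdkn1c* (p57), further inhibitors that are not in that list and were picked out after their values were seen, were also tested. *Cdkn1a* had 375, 432 and 378 across *Ctrl* against 493, 484 and 474 across *Tet iTKO* mESC and rose without overlap (log2 fold change 0.29, standard error 0.091, limma adjusted p = 0.0101, corrected 0.32 (limma adjusted p = 0.00645)), so its level was far above that of the 4 inhibitors. *Cdkn1c* had 45, 20 and 31 across *Ctrl* against 65, 33 and 30 across *Tet iTKO* mESC, with overlapping groups (log2 fold change 0.39, limma adjusted p = 0.41).

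*Cdc25a* and *Cdc25b*, whose products activate CDK1, and *Wee1* and *Pkmyt1*, whose products hold it off, were called higher. Of the 3 CDC25 phosphatases and the kinases WEE1 and PKMYT1, 4 of 5 genes were called higher (80.0%, against 16.4% of all genes tested), all 5 lay higher without overlap between the groups (as 21.2% of all genes tested did), and none was lower by limma, also at an unadjusted p under 0.05 (0 genes). Without the trend of variance on expression, *Cdc25a*, *Wee1* and *Pkmyt1* lost their calls and *Cdc25b* kept its call. *Cdc25b* (ENSMUSG00000027330.9), which encodes a phosphatase that starts CDK1 activation, had 53, 71 and 67 normalized counts across the *Ctrl* lines against 85, 120 and 115 across the *Tet iTKO* lines. Its mean was 168% of that in *Ctrl* (log2 fold change 0.73, standard error 0.21, limma adjusted p = 0.00579), and the corrected value was 0.64 (limma adjusted p = 0.0198). Without *Tet iTKO* line 2 the call of *Cdc25b* was lost (limma adjusted p = 0.0511). *Cdc25a* (ENSMUSG00000032477.8), which acts at entry into S phase as well, had 714, 703 and 654 across *Ctrl* against 906, 765 and 747 across *Tet iTKO* mESC. The difference was small, with *Tet iTKO* line 1 far above the other lines (log2 fold change 0.22, standard error 0.078, limma adjusted p = 0.027, corrected 0.28 (limma adjusted p = 0.00409)). It was not called without that line (limma adjusted p = 0.232), without *Ctrl* line 3 (limma adjusted p = 0.109) or with no filter on low values (limma adjusted p = 0.0862). *Cdc25c*, the phosphatase of mitotic entry, had 158, 161 and 181 across *Ctrl* against 212, 187 and 188 across *Tet iTKO* mESC, with 0.23 as its log2 fold change (limma adjusted p = 0.188) and a corrected value of 0.42 (limma adjusted p = 0.0176).

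*Wee1* (ENSMUSG00000031016.8), which encodes the nuclear kinase that holds CDK1 inactive, had 152, 157 and 174 normalized counts across the *Ctrl* lines against 238, 199 and 195 across the *Tet iTKO* lines. All *Tet iTKO* lines were above all *Ctrl* lines (log2 fold change 0.38, standard error 0.13, limma adjusted p = 0.025, corrected 0.40 (limma adjusted p = 0.0251)). The call was lost without *Ctrl* line 1 (limma adjusted p = 0.0735), *Ctrl* line 2 (limma adjusted p = 0.0627) or *Tet iTKO* line 1 (limma adjusted p = 0.144). *Pkmyt1* (ENSMUSG00000023908.7), which encodes the membrane-bound kinase of the same function, had 302, 321 and 358 across *Ctrl* against 381, 412 and 437 across *Tet iTKO* mESC. It rose (log2 fold change 0.33, standard error 0.099, limma adjusted p = 0.00921) and was not called after correction, at 0.12 (limma adjusted p = 0.375), or without *Tet iTKO* line 3 (limma adjusted p = 0.0634). The log2 ratio of the summed per-kilobase level of both kinases to that of the 3 phosphatases was -0.75 ± 0.13 (SD, n = 3) over *Ctrl* lines against -0.67 ± 0.12 (SD, n = 3) over *Tet iTKO* lines, a difference smaller than the line-to-line spread (exact two-sided permutation test, p = 0.5).

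The pocket protein genes were low. *Rb1* (ENSMUSG00000022105.6), the founding member, had 19, 1 and 8 normalized counts across the *Ctrl* lines against 24, 24 and 14 across the *Tet iTKO* lines. *Ctrl* line 1 lay above *Tet iTKO* line 3, so the groups overlapped, and the call stood at the edge of the threshold (log2 fold change 1.57, standard error 0.63, limma adjusted p = 0.0499, corrected 1.65 (limma adjusted p = 0.0455)). It was lost in 10 of 16 alternatives, among them the removal of *Ctrl* line 2 (limma adjusted p = 0.371), *Tet iTKO* line 1 (limma adjusted p = 0.168), line 2 (limma adjusted p = 0.156) or line 3 (limma adjusted p = 0.0624), and both other pseudocounts. Without *Ctrl* line 2, the lowest, the log2 fold change of *Rb1* was 0.65. *Rbl1*, which encodes p107, had 88, 64 and 58 across *Ctrl* against 72, 61 and 54 across *Tet iTKO* mESC, with overlapping groups and a 95% interval from -0.63 to 0.32. *Rbl2*, which encodes p130, was under the minimum for the test, at 19, 5 and 4 across *Ctrl* against 4, 6 and 9 across *Tet iTKO* mESC. p107 held the largest share of the summed per-kilobase level of the family, 81.2% ± 11.0 (SD, n = 3) over *Ctrl* lines against 69.1% ± 2.53 (SD, n = 3) over *Tet iTKO* lines.

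The E2F genes moved in different directions. Of the 8 E2F genes, 5 were called higher, 1 was called lower and 2 were not called, where 16.4% and 18.4% of all genes tested were called higher and lower. After correction *E2f3*, *E2f4* and *E2f7* kept their calls, and those of *E2f1*, *E2f8* and *E2f5* were lost. Among the activators, *E2f3* (ENSMUSG00000016477.11) had 111, 126 and 121 normalized counts across the *Ctrl* lines against 195, 177 and 216 across the *Tet iTKO* lines. The groups lay well apart, the mean was 164% of that in *Ctrl* (log2 fold change 0.71, standard error 0.15, limma adjusted p = 0.000212), and the corrected value was 0.58 (limma adjusted p = 0.00274). *E2f1* (ENSMUSG00000027490.10), the best known activator, had 407, 357 and 392 across *Ctrl* against 476, 502 and 476 across *Tet iTKO* mESC. It rose (log2 fold change 0.33, standard error 0.091, limma adjusted p = 0.00388), and its corrected value was 0.11 (limma adjusted p = 0.399). *E2f2*, the other activator, had 74, 39 and 67 across *Ctrl* against 77, 58 and 33 across *Tet iTKO* mESC, with *Tet iTKO* lines at both ends of the range (95% interval from -0.70 to 0.45).

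The atypical repressors E2F7 and E2F8, which bind DNA without DP proteins and are themselves E2F targets, both rose. *E2f7* (ENSMUSG00000020185.10) had 61, 63 and 65 normalized counts across the *Ctrl* lines against 121, 110 and 107 across the *Tet iTKO* lines. The *Ctrl* lines were within a few counts of each other and each *Tet iTKO* line was far above them, with a mean at 179% of that in *Ctrl* (log2 fold change 0.83, standard error 0.20, limma adjusted p = 0.00103, corrected 0.66 (limma adjusted p = 0.00966)). *E2f8* (ENSMUSG00000046179.10) had 224, 198 and 185 across *Ctrl* against 232, 260 and 260 across *Tet iTKO* mESC. Its rise was smaller and close to the threshold (log2 fold change 0.31, standard error 0.12, limma adjusted p = 0.0453, corrected 0.29 (limma adjusted p = 0.0784)). It was not called without *Ctrl* line 2 (limma adjusted p = 0.0991), *Ctrl* line 3 (limma adjusted p = 0.158), *Tet iTKO* line 2 (limma adjusted p = 0.14) or *Tet iTKO* line 3 (limma adjusted p = 0.136), after rescaling by trimmed means (limma adjusted p = 0.0635) or with no filter on low values (limma adjusted p = 0.0676). The log2 ratio of the activators *E2f1*, *E2f2* and *E2f3* to *E2f7* and *E2f8*, on summed per-kilobase levels, was 1.41 ± 0.12 (SD, n = 3) over *Ctrl* lines against 1.35 ± 0.059 (SD, n = 3) over *Tet iTKO* lines (exact two-sided permutation test, p = 0.6). After Benjamini-Hochberg adjustment over the 4 ratios computed, every p was 0.7.

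The repressive E2F factors that work with p107 and p130 split. *E2f4* (ENSMUSG00000014859.8) was the most abundant E2F per length and had 1347, 1427 and 1508 normalized counts across the *Ctrl* lines against 1683, 1665 and 1651 across the *Tet iTKO* lines. The 3 *Tet iTKO* lines were close together and above all *Ctrl* lines (log2 fold change 0.22, standard error 0.059, limma adjusted p = 0.00263, corrected 0.20 (limma adjusted p = 0.00569)). *E2f5* (ENSMUSG00000027552.7) had 192, 170 and 159 across *Ctrl* against 142, 110 and 114 across *Tet iTKO* mESC and was the E2F gene that fell (log2 fold change -0.51, standard error 0.15, limma adjusted p = 0.00859). Its corrected value was -0.27 (limma adjusted p = 0.193), and without *Ctrl* line 1 it was not called (limma adjusted p = 0.0532). *E2f6*, a repressor that does not bind RB proteins, had 119, 128 and 119 across *Ctrl* against 146, 164 and 99 across *Tet iTKO* mESC, and *Tet iTKO* line 3 lay below all *Ctrl* lines while the other two lay above. Of the summed per-kilobase E2F level, *E2f4* held 65.3% ± 2.40 (SD, n = 3) over *Ctrl* lines against 66.1% ± 0.710 (SD, n = 3) over *Tet iTKO* lines, *E2f5* 8.92% ± 1.04 (SD, n = 3) and 5.42% ± 0.705 (SD, n = 3), and *E2f7* 1.05% ± 0.0165 (SD, n = 3) and 1.63% ± 0.0809 (SD, n = 3).

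**Figure D3:**
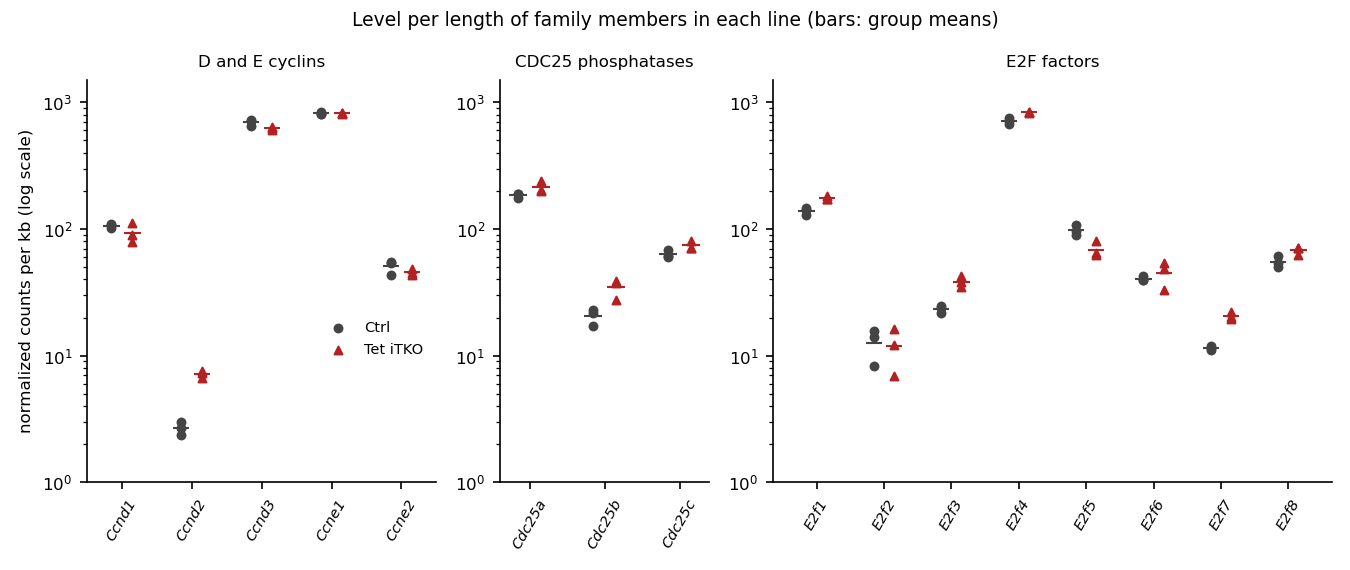
Normalized counts per kilobase of the longest transcript, on a log scale, for the D and E cyclins, the CDC25 phosphatases and the E2F factors, with 1 circle per *Ctrl* line, 1 triangle per *Tet iTKO* line and a bar at each group mean. *Ccnd3*, *Ccne1*, *Cdc25a* and *E2f4* lead their families in both genotypes, and *Ccnd2*, *Cdc25b*, *E2f3* and *E2f7* rose from low levels.

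The DP partners of the E2F factors were not called in the deposited values. *Tfdp1* had 1113, 1178 and 1118 across *Ctrl* against 1079, 1077 and 998 across *Tet iTKO* mESC, with *Tet iTKO* lines below all *Ctrl* lines (log2 fold change -0.11, limma adjusted p = 0.18), and 24.2% of its 50-base stretches also occur in transcripts of other genes. *Tfdp2* had 152, 193 and 156 across *Ctrl* against 137, 120 and 127 across *Tet iTKO* mESC, again without overlap (log2 fold change -0.37, limma adjusted p = 0.0517). It was called lower after correction, at -0.51 (limma adjusted p = 0.0101), with the minimum mean at 50 (limma adjusted p = 0.0461), after rescaling by trimmed means (limma adjusted p = 0.039) and without *Ctrl* line 1 (limma adjusted p = 0.0446). *Tfdp1* held 94.7% ± 0.507 (SD, n = 3) of the summed DP level per kilobase over *Ctrl* lines against 95.6% ± 0.314 (SD, n = 3) over *Tet iTKO* lines.

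The promoters of *E2f3* and *E2f7* are shown because these genes rose in every alternative. Of the RefSeq windows of *E2f3*, the one with a match is chr13:29986014-29986313 on the minus strand, and the window of *E2f7* is chr10:110745189-110745488 on the plus strand, with the same capitals as above.
*E2f3*: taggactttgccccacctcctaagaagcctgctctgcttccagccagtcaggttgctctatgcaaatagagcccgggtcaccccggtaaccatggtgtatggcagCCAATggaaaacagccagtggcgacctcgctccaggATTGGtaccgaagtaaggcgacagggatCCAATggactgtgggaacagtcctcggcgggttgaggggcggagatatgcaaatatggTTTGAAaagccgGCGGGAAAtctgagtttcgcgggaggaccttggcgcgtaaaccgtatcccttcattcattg
*E2f7*: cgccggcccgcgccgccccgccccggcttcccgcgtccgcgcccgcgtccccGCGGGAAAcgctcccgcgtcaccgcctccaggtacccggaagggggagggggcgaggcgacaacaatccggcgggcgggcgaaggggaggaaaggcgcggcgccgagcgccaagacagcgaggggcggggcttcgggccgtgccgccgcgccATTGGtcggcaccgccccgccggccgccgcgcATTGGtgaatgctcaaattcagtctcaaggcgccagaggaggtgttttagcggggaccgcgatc
In the *E2f3* window, GCGGGAAA, the reverse complement of an E2F word, starts at -11 and TTTGAA at -23, and 3 CCAAT words of either strand lie between -145 and -81. The *E2f7* window holds GCGGGAAA at -198 and the reverse of CCAAT at -46 and -14, and neither of the CHR words searched.

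MuvB joins p107 or p130 to silence cell cycle genes in G0 and G1, and later joins B-MYB and FOXM1 to switch on genes of G2 and mitosis. None of the 4 core genes of the list was called by limma, and 1 was lower at an unadjusted p under 0.05. *Lin9* had 69 ± 16.5 (SD, n = 3) normalized counts over *Ctrl* lines against 69 ± 5.57 (SD, n = 3) over *Tet iTKO* lines, *Lin52* 56 ± 13 (SD, n = 3) normalized counts over *Ctrl* lines against 48.7 ± 3.06 (SD, n = 3) over *Tet iTKO* lines and *Lin54* 66.3 ± 11 (SD, n = 3) normalized counts over *Ctrl* lines against 63 ± 8.66 (SD, n = 3) over *Tet iTKO* lines. *Lin37* had 130, 174 and 169 across *Ctrl* against 110, 123 and 143 across *Tet iTKO* mESC, with overlapping groups (log2 fold change -0.33, limma adjusted p = 0.113), and was called lower without *Ctrl* line 1, which was the lowest *Ctrl* line (limma adjusted p = 0.0379). *Mybl2* (ENSMUSG00000017861.5), which encodes B-MYB, was among the most abundant members, with 3309, 3425 and 3658 normalized counts across the *Ctrl* lines against 3909, 3954 and 4116 across the *Tet iTKO* lines. It rose with no overlap (log2 fold change 0.21, standard error 0.047, limma adjusted p = 0.000748), and the corrected value was on the other side of 0 at -0.031 (limma adjusted p = 0.662). Of its 50-base stretches, 23.8% also occur in transcripts of other genes. *Foxm1* (ENSMUSG00000001517.8) had 309, 286 and 300 across *Ctrl* against 338, 383 and 440 across *Tet iTKO* mESC. It rose (log2 fold change 0.37, standard error 0.10, limma adjusted p = 0.00569), and was not called after correction, at 0.13 (limma adjusted p = 0.373), or without *Tet iTKO* line 3, the highest (limma adjusted p = 0.0804).

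Transcript length differed between members that fell and members that rose. The median length of the longest annotated transcript was 1988 bases over the 9 members called lower, 3723 bases over the 14 called higher and 3089 bases over the 20 not called. The median GC content was 47.8%, 51.8% and 45.3% in the same order. *Cdk1*, at 4375 bases, and *Ccnd3*, at 3858 bases, were the longest of the genes that fell, and *E2f4*, at 1993 bases, was the shortest of those that rose, and these 3 calls remained after correction. The longest annotated transcript need not be the one that was expressed, and which transcripts were expressed was not tested. The correction and the levels per kilobase both use that length. The part of length and GC content in the calls was not tested beyond this correction. Several members overlap an exon of a gene on the other strand, among them *Cdk4* with *Tspan31*, *Ccnd3* with *Bysl*, *Cdk2* with *Pmel* and *Pkmyt1* with *Paqr4*. Members that rose from low levels do so too: *Ccnd2* with *9330179D12Rik* and *Gm43126*, *E2f7* with *1700020G17Rik*, *Cdc25b* with *Spef1* and *Rb1* with *Lpar6* and *Rcbtb2*. *E2f5* overlaps *1810022K09Rik* and *E2f8* overlaps *Gm2788*. The part of such reads in these calls was not tested. Smart-Seq2 libraries do not keep the strand, so reads of such pairs cannot be told apart.

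**Figure D4:**
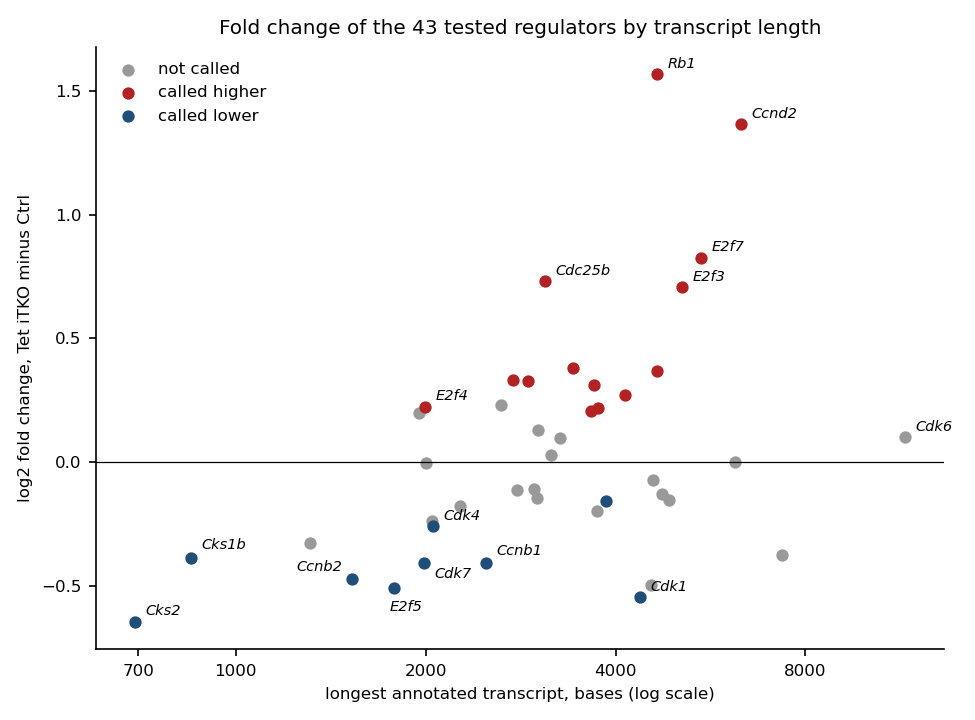
Log2 fold change of *Tet iTKO* against *Ctrl* from the deposited values (vertical axis) by the length of the longest annotated transcript in bases on a log scale (horizontal axis), with 1 point per tested member coloured by its call. *Cks2* and *Cks1b* lie at the short end among the falls and *Ccnd2*, *E2f7* and *E2f3* at the long end among the rises, whereas *Cdk1* fell and has a long annotated transcript.

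Across the list, RefSeq gave 44 promoter windows for 35 of the 48 members. An E2F word was found in 25.0% of these windows and in 2.3% of all 32851 windows of the same length. A CHR word was found in 34.1% against 19.2%, CCAAT in 54.5% against 37.4%, and both CHR and CCAAT in 27.3% against 7.5%. Both were found in 4 of 8 members called higher that had a window, in 3 of 8 called lower and in 5 of 14 not called.

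Further genes of the pathway were counted in 5 lists, and *Pcna*, *Gins2*, *Rbx1* and *Rbbp4* fell while *Cdk18* and *Myb* rose. Of their 110 tested genes, 16 were called higher (14.5%) and 29 lower (26.4%), against 16.4% and 18.4% of all genes tested. The median log2 fold change was -0.0038. After correction these counts were 18 and 22, against 12.7% and 13.5% of all genes tested. Rescaling to equal totals gave 30 higher and 24 lower, where 2319 of all 10524 genes were higher and 1428 were lower. Among 30 G1/S genes that E2F is known to regulate, 5 were higher (16.7%), 15 were lower (50.0%) and 10 were not called, with a median of -0.14 (corrected 4 and 11, median -0.13). *Gins2*, a subunit of the replicative helicase, had 589, 544 and 615 across *Ctrl* against 334, 365 and 345 across *Tet iTKO* mESC (log2 fold change -0.74, standard error 0.089, limma adjusted p = 2.41e-08). *Pcna*, the sliding clamp of DNA polymerases, had 1236, 1253 and 1140 across *Ctrl* against 837, 778 and 698 across *Tet iTKO* mESC (log2 fold change -0.65, standard error 0.071, limma adjusted p = 3.32e-09). *Pole*, the catalytic subunit of DNA polymerase epsilon, rose by 0.39 on the log2 scale (limma adjusted p = 0.00517, corrected 0.13 (limma adjusted p = 0.434)), and *Cdc6*, a licensing factor, by 0.30 (limma adjusted p = 0.0149, corrected 0.20 (limma adjusted p = 0.135)). The other 3 rises were smaller and were still called after correction. They were *Rrm2*, a subunit of ribonucleotide reductase (0.23, limma adjusted p = 0.000177, corrected 0.42 (limma adjusted p = 3.27e-09)), and the helicase subunits *Mcm4* (0.21, limma adjusted p = 0.00369, corrected 0.30 (limma adjusted p = 7.44e-05)) and *Mcm6* (0.18, limma adjusted p = 0.00805, corrected 0.16 (limma adjusted p = 0.0178)).

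Among 29 tested G2/M genes that B-MYB, MuvB and FOXM1 are known to regulate, 4 were higher (13.8%) and 6 lower (20.7%), near the 16.4% and 18.4% of all genes tested, with a median of 0.027. After correction 5 were higher and 5 lower, against 12.7% and 13.5% of all genes tested, with a median of 0.056. *Pttg1*, which encodes securin, had 471, 432 and 405 across *Ctrl* against 270, 253 and 325 across *Tet iTKO* mESC (log2 fold change -0.63, standard error 0.10, limma adjusted p = 9.71e-06), and *Cdca3* fell as well (log2 fold change -0.48, standard error 0.08, limma adjusted p = 1.24e-05). *Espl1*, which encodes separase, the protease that securin holds, had 391, 471 and 504 across *Ctrl* against 718, 659 and 659 across *Tet iTKO* mESC (log2 fold change 0.58, standard error 0.089, limma adjusted p = 2.22e-06), with a corrected value of 0.18 (limma adjusted p = 0.13). *Kif23*, a kinesin of cytokinesis, rose too (log2 fold change 0.40, standard error 0.094, limma adjusted p = 0.000899).

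Among 27 other cyclins, CDKs and inhibitors, 5 were higher (18.5%, near the 16.4% of all genes tested) and 2 lower (7.41%, against 18.4%). *Cdk18*, a kinase of the PCTAIRE group, had 70, 83 and 87 normalized counts across the *Ctrl* lines against 298, 288 and 321 across the *Tet iTKO* lines. Each *Tet iTKO* line was far above each *Ctrl* line (log2 fold change 1.91, standard error 0.15, limma adjusted p = 9.33e-13), which was the largest rise in the 5 lists. *Cdk19*, a kinase of Mediator, rose from low levels (log2 fold change 1.13, standard error 0.38, limma adjusted p = 0.0194), and its cyclin partner *Ccnc* fell (log2 fold change -0.51, standard error 0.13, limma adjusted p = 0.00198, corrected -0.26 (limma adjusted p = 0.13)). *Ccng1* fell as well (log2 fold change -0.39, standard error 0.076, limma adjusted p = 9.82e-05). Of 17 genes of cyclin turnover 6 were lower by limma, which is 35.3% against 18.4% of all genes tested, and none was higher (1 at an unadjusted p under 0.05, 1 after correction and 3 after rescaling to equal totals). The number lower was 4 after correction and after rescaling to equal totals, and 3 under quantile normalization and without the trend. Of all genes tested, 13.5% were lower after correction. Of 10524 genes, 1428 were lower at equal totals, 1761 under quantile normalization and 1217 without the trend. *Rbx1*, the RING subunit of cullin ligases, had 817, 785 and 691 across *Ctrl* against 397, 428 and 358 across *Tet iTKO* mESC (log2 fold change -0.95, standard error 0.087, limma adjusted p = 5.42e-11), and *Skp1a*, the adaptor that links SKP2 to its ligase, fell with it (log2 fold change -0.46, standard error 0.056, limma adjusted p = 2.18e-08). Of 9 partners of MuvB and of cell cycle promoters, 2 were higher (22.2%) and 1 lower (11.1%). *Rbbp4*, the remaining subunit of the MuvB core, fell (log2 fold change -0.40, standard error 0.052, limma adjusted p = 1.03e-07), and *Myb* (log2 fold change 1.12, standard error 0.33, limma adjusted p = 0.00816) and *Foxo1* (log2 fold change 0.69, standard error 0.19, limma adjusted p = 0.00398) rose.

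**Figure D5:**
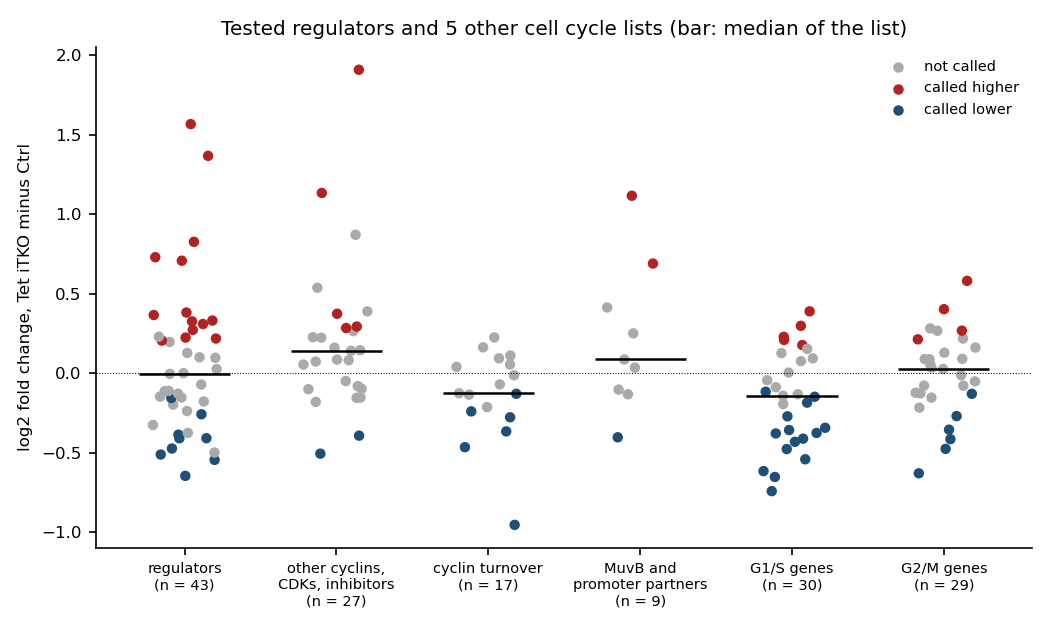
Log2 fold change of *Tet iTKO* against *Ctrl* (vertical axis) for each tested gene of the 48-symbol list and of the 5 other lists (horizontal axis), coloured by its call, with a bar at each list's median. The G1/S list lies mostly below 0 with a median of -0.14, and the regulators and G2/M genes spread to both sides.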

How the data were processed

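RNA from 3 *Ctrl* and 3 *Tet iTKO* mESC lines was sequenced as paired reads of 50 bases from Smart-Seq2 libraries. According to the submitters' processing notes and the methods, the authors aligned reads with STAR (mm9), kept unique alignments, counted genes with HTSeq 0.7.1 in stranded mode with a minimum quality of 10, and normalized with DESeq2 1.26.0. The deposited values are normalized counts rounded to whole numbers by the authors (treated as a score), so no count model was run on them.

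Identifiers were paired with GENCODE M21 (GRCm38) for symbols, longest transcript and GC content, since no mm9 annotation was used here, and promoter windows came from RefSeq (GRCm38.p6). On log2(normalized count + 1), 10524 genes that averaged 10 or more were fitted two-sided in limma 3.58.1 under R 4.3.3, moderated by eBayes with its trend option, and p-values were adjusted by Benjamini-Hochberg. The fit was first tested on simulated data. The correction for GC content and log2 length was a loess fit (span 0.3) of each library's deviations from the gene means. For ratios, an exact two-sided permutation test over lines was run in SciPy 1.17.1. Other settings were pseudocounts of 0.5 and 4, no filter, a minimum mean of 50, other scalings, no trend, a block for the replicate number, and fits without each line in turn. The members, the 5 further lists and the marker lists were chosen with earlier results of these data known. Values in every line are given for members that were called or near 0, and up to 2 rises and 2 falls are named from each further list. *Cdkn1a*, *Cdkn1c*, *Mnat1*, *Rrm2*, *Mcm4*, *Mcm6* and the marker genes were named beyond this rule, after their values were seen.

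Lines come from different embryos. The paper gives the data as from 3 independent experiments, and whether a replicate number marks an experiment is not stated. Libraries with the same number did not deviate together (Pearson r from -0.0054 to 0.00071 over 10524 genes). Within a group, libraries differed by more than counting noise, so none was a copied library. This does not show that the libraries came from different lines. Depth was estimated at 3.67 M to 5.10 M reads on genes, 3 normalized counts were taken as the floor per library, and such floors cover counting error only, because no molecular identifiers mark which reads come from 1 molecule.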

Additional observations from a re-analysis of the deposited data

How the results depend on the processing

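Of 727 values of single members under the alternatives, 611 kept their direction and their side of the threshold, 59 lost a call, 15 gained one and 42 turned direction. The number of members called higher was 14 of 43, where 1731 of all 10524 genes tested were higher. Without the variance trend it was 5 of 43, where 1075 of 10524 were higher, so the share of members was then near that of all genes. It was 9 with the GC and length correction (1325 of 10457 genes) and 9 with that correction and the replicate block together (1356 of 10457 genes). In the 5 further lists, 16 of 110 tested genes were higher, 30 after rescaling to equal totals (2319 of all 10524 genes) and 6 without the trend (1075 of all 10524 genes). The causes were not tested. Fits that leave out a line also have fewer samples, and the part of this in their counts was not tested. Leaving out each line in turn gave 10 to 13 members higher and 8 to 11 lower, and 13 to 17 further genes higher and 26 to 30 lower. In these fits 1335 to 1635 of all 10524 genes were higher and 1642 to 1722 were lower. The replicate block alone gave 14 members higher and 10 lower, with *Ccnh* added, and changed no other call of a member. With that block 1762 of all 10524 genes were higher and 1980 were lower.

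Under the GC and length correction, with and without the replicate block, these log2 fold changes turned: *Ccna2* 0.011, *Ccne1* 0.093, *Ccne2* 0.13, *Ccnh* 0.10, *Tfdp1* 0.0061, *Skp2* -0.087, *Cks1b* 0.063, *Lin52* 0.044, *Lin54* 0.0099 and *Mybl2* -0.031. Of these only *Cks1b* and *Mybl2* had been called. Under quantile normalization *Ccna2* was at 0.0043, *Ccne1* at 0.11, *Cdkn3* at -0.011 and *Lin9* at -0.061. Rescaling to equal totals put *Ccne1* at 0.081 and *Lin54* at 0.013, and trimmed means put *Skp2* at -0.021. Without 1 line, log2 fold changes ranged from -0.012 to 0.0097 for *Ccne1*, -0.024 to 0.29 for *Cdk6*, -0.27 to 0.023 for *Rbl1*, -0.41 to 0.20 for *E2f2*, -0.020 to 0.34 for *E2f6*, -0.033 to 0.049 for *Skp2*, -0.19 to 0.14 for *Lin9*, -0.27 to 0.0031 for *Lin52* and -0.15 to 0.060 for *Lin54*, none of them called. The difference in the share of *Ccnd1* ranged from -1.44 to 0.329 percentage points without 1 line, and that in the log2 ratio of *E2f1*, *E2f2* and *E2f3* to *E2f7* and *E2f8* from -0.098 to 0.012, with exact permutation p from 0.2 to 1 and 0.4 to 1, where 0.2 is the smallest p that 2 lines against 3 can give. *Ccnd2* and the other members with a mean under 50 gave no value at that minimum. Depth limits the 4 members under 10 normalized counts, and *Rb1*.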
